A study of Mus musculus with 45 samples.

Results

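Aged oocytes cultured inside young follicles were compared with young oocytes that were never cultured. The first group, called AY, holds oocytes of aged mice that were moved into an emptied young follicle, that is, one without its native oocyte, and the rebuilt (chimeric) follicle was then cultured. The second group, called in vivo young, holds oocytes of young mice collected without culture. The libraries were chosen by their titles, which gave 6 AY and 8 in vivo young libraries, or 14 of the 45 of the series. The other 31 libraries are young oocytes cultured in vitro (8), young oocytes in rebuilt young follicles (YY, 11) and aged oocytes in rebuilt aged follicles (AA, 12), and they enter only where named. The animals are mice, and their strain and ages and the meiotic stage of the oocytes at collection are not given in the sources used here. All groups share the same handling after collection: each oocyte was lysed alone and its RNA was made into 1 low-input library.

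AY and in vivo young differ at once in the age of the oocyte, in the rebuilding and culture of the follicle, and in their range of library numbers. These cannot be told apart in this comparison. The labels name each library as a biological replicate but say nothing of the animals they came from. The p-values therefore cover the spread among these libraries alone, and that spread may be technical. Counts are shares of each library, and the total RNA of an oocyte was not measured, so a lower share of 1 transcript and a gain of the others cannot be told apart.

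A growing oocyte fills its cytoplasm with maternal transcripts and proteins that must last through meiosis and the first cleavages, because its own transcription stops once it is fully grown. Among these stores are the zona pellucida glycoproteins, the subcortical maternal complex that lies under the egg surface, and the parts of the meiotic spindle. The granulosa cells of the follicle, joined to the oocyte by gap junctions, pass pyruvate, amino acids and cholesterol to it and hold it in meiotic arrest, and the oocyte in turn sends them growth factors such as GDF9 and BMP15.

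Total counts per library ran from 538916 to 1088254 in AY (mean 824217) and from 418703 to 2201980 in in vivo young (mean 1122938). All 18 oocyte markers of the list were detected. Within both groups the libraries were not alike. Over the whole series, 11 genes were either fully present or nearly absent in a library, and they put the 14 libraries into 5 patterns: AY replicates 2 to 5, AY replicates 1 and 6, in vivo young replicates 3, 4, 6 and 7, replicates 5 and 8, and replicates 1 and 2. No pattern could occur in both groups, because 1 of the 11 genes, Bfsp1, was present in all 8 in vivo young libraries and in 0 AY libraries. Whether a pattern stands for an animal was not tested. Calls were counted again with the libraries of each pattern summed into 1 sample.

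Of 8060 genes tested, 571 (7.08%) were called at an adjusted p under 0.05 (Benjamini-Hochberg, quasi-likelihood test of edgeR). Lower genes outnumbered higher genes: 396 (4.91%) were lower in AY and 175 (2.17%) were higher. At least 2-fold changes were rarer, with 121 genes lower (1.5%) and 45 higher (0.558%). In 118 genes (1.46%) every AY library lay below every in vivo young library, and in 45 genes (0.558%) every AY library lay above. With libraries of a pattern summed, which leaves 2 AY and 3 in vivo young samples, 35 genes were called, 33 lower and 2 higher, and 1011 genes had an unadjusted p under 0.05. The count of higher genes also moved with single libraries: it was 104, 105 and 99 without AY replicate 1, 2 and 3. Without in vivo young replicate 6, 810 genes were called, 542 of them lower. The median log2 change over all 8060 genes was 0.01. Counts of lists are to be read beside the shares over all genes, 4.91% lower and 2.17% higher.

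**Figure D1:**
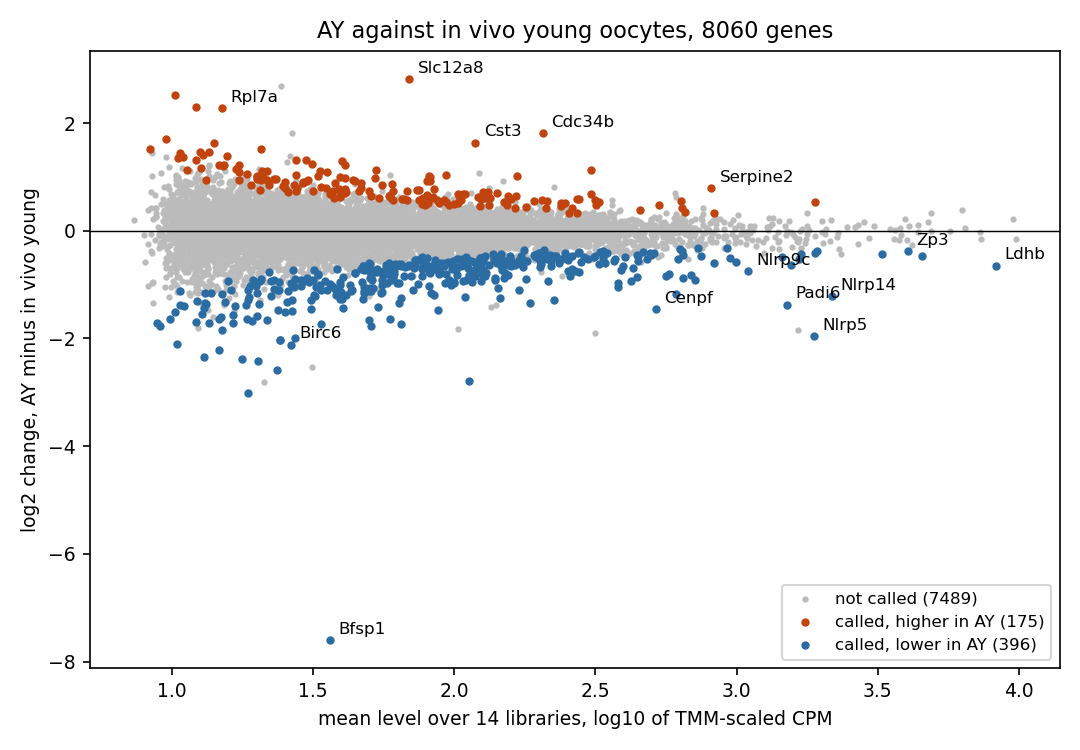
Log2 change (AY minus in vivo young) against the mean level over the 14 libraries (log10 of TMM-scaled CPM), 1 point per gene. The 175 called higher genes are orange, the 396 called lower genes are blue, and genes of the maternal complex such as Nlrp5 and Padi6 lie at the high-level end of the lower calls. The fitted position of Bfsp1 rests on 1 count in AY and is not a measured fold.

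Genes of the subcortical maternal complex, the oocyte protein assembly that early cleavage depends on, were listed with the oocyte-specific Nlrp family and Uhrf1. Of 17 members tested, 10 fell, none rose and 7 were not called, and the median log2 change was -0.85. Most of the called members were Nlrp genes, and Ooep, Tle6, Khdc3 and Zbed3 of the complex were not called. Over all genes tested the median was 0.01, with 4.91% lower. The Nlrp genes are similar in sequence, so reads may be shared between them, and they are not independent of each other.

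Padi6, a peptidylarginine deiminase of the cytoplasmic lattices, had the smallest p of the list. Its level was 582, 784 and 1112 CPM (counts scaled by TMM to a common library total; lowest, median and highest) in the 6 AY libraries and 1693, 2066 and 2561 CPM in the 8 in vivo young libraries. The groups did not overlap. The fall was 1.37 on the log2 scale (log2 change -1.37 ± 0.13 SE, adjusted p = 8.1e-08, edgeR). Padi6 lies on chromosome 4, 140454666 to 140469955 (mm39).

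Nlrp5 (MATER), a core protein of the complex, was at 531, 628 and 1203 CPM in AY and at 1161, 2906 and 4594 CPM in in vivo young. AY replicate 4 (1203 CPM) lay just above the lowest in vivo young library, replicate 6 (1161 CPM), and all other AY libraries lay below every in vivo young library. The change was -1.96 ± 0.29 (SE, adjusted p = 0.0015, edgeR), from a mean of 2764 ± 1003 CPM (SD, n = 8) to 712 ± 251 CPM (SD, n = 6). Nlrp5 and the members named after it here lie outside the rule for named genes and were chosen after their values were seen, apart from Nlrp9c.

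Nlrp14 was at 890, 1143 and 2092 CPM in AY against 1873, 2733 and 4090 CPM in in vivo young (-1.22 ± 0.22, adjusted p = 0.00384, edgeR). Nlrp9c was at 739, 787 and 841.5 CPM against 1036, 1365 and 1562 CPM (-0.75 ± 0.10, adjusted p = 2.0e-05, edgeR), with no overlap. The AY libraries were closer to each other for Nlrp9c (SD 42.7 CPM) than the in vivo young libraries (SD 179 CPM). The other called members were Nlrp9a (-1.18), Nlrp2 (-0.98), Nlrp9b (-0.88), Nlrp4e (-0.87), Nlrp4b (-0.85) and Uhrf1 (-0.66), a chromatin protein that in oocytes is mostly cytoplasmic.

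Not every member took part. Ooep, a small RNA-binding-like protein of the core complex, was at a mean of 1361 ± 148.3 CPM (SD, n = 6) in AY and 1276 ± 221 CPM (SD, n = 8) in in vivo young (log2 change 0.09 ± 0.11). Zbed3 was at 0.39 ± 0.25 and Khdc3 (FILIA) at 0.31 ± 0.56. Tle6, another core member, was at -0.42 ± 0.16 (adjusted p = 0.122, edgeR). None of these 4 was called, nor were Nlrp4a, Nlrp4c and Nlrp4f, which had values of -0.52, -0.86 and -0.44. With the libraries of each pattern summed, 6 of the 17 were called lower and none higher.

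Promoter sequences are shown for Padi6 and Nlrp9c, the named members of this list, and for Zp3, a zona gene that was also lower. The E-box, CANNTG, is the motif bound by basic helix-loop-helix factors such as FIGLA, which drives the zona genes in oocytes. The 250 bases before the start are given 5′ to 3′ on the gene's strand, from RefSeq on GRCm38.p6, with each E-box in capitals. They lie at chr4:140742644-140742893 (minus strand, Padi6), chr7:26403701-26403950 (minus strand, Nlrp9c) and chr5:135979855-135980104 (plus strand, Zp3).
Padi6: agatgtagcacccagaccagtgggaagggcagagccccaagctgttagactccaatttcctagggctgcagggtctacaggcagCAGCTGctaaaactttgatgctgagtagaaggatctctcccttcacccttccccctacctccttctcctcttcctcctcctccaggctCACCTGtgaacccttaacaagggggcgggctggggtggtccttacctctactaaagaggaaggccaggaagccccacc
Nlrp9c: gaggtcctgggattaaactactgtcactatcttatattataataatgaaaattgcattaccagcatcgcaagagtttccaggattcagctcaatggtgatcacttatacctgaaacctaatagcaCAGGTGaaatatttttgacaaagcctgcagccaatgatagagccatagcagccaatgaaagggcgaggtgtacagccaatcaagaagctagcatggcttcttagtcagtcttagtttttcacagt
Zp3: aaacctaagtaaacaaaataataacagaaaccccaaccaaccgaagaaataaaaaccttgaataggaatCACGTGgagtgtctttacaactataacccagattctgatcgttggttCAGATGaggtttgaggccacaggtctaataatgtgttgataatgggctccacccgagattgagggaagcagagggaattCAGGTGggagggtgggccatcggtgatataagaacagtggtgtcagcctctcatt

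The Padi6 promoter held 2 E-boxes, that of Nlrp9c 1 and that of Zp3 3. CANNTG reads the same on both strands, so each site was counted once. At least 1 E-box stood in 91.3% of the 23 promoters of the maternal complex list that the table held, in 57.9% of the 7614 promoters of tested genes, in 60.3% of the 393 promoters of lower genes and in 61.1% of the 180 promoters of higher genes. Some genes have more than 1 promoter in the table, and promoters of the Nlrp family share sequence. A match of 6 letters is a description of the window and not a bound site.

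Genes of the zona pellucida and of secreted oocyte factors had 4 of 10 members lower, 1 higher and a median of -0.21. Zp2, the zona protein that sperm bind, was at 1021, 1133 and 1548 CPM in AY and at 1531, 1826 and 2309 CPM in in vivo young (-0.63 ± 0.11, adjusted p = 0.000785, edgeR). A single AY library, replicate 4, reached the range of the in vivo young group. Zp3, the other abundant zona protein, was at 3163, 3335 and 3990 CPM against 3923, 4516 and 5270 CPM (-0.38 ± 0.09, adjusted p = 0.00835, edgeR). Astl (ovastacin), the protease that cuts ZP2 after fertilisation, was at -0.92 ± 0.22 and Zp1 at -0.48 ± 0.15, and both passed. Fgf8, a growth factor sent to cumulus cells, was the member that rose (0.57 ± 0.16). That call was lost in 9 of 14 fits with 1 library left out (in vivo young replicates 1 to 4 and every AY replicate but the fourth), with AY replicates 2 to 5 alone, with in vivo young replicates 3 to 8 alone and with the trends of length and GC content removed, an alternative described below. The growth factors Gdf9 and Bmp15 were at -0.15 ± 0.12 and -0.18 ± 0.11 and were not called. With libraries of a pattern summed no member of this list was called in edgeR, and 5 had an unadjusted p under 0.05 (4 lower, 1 higher). Astl, Zp1, Fgf8, Gdf9 and Bmp15 were chosen with their values known.

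Spindle pole and motor genes were lower in 8 of 28 cases and higher in none, with a median of -0.23, and 4 of 28 had a positive value. Over all genes 4.91% were lower. The count was 5 without any 1 of AY replicates 1, 2 and 5 or in vivo young replicates 3, 4, 7 and 8, and with libraries of a pattern summed it was 2. Ckap5 (chTOG), a microtubule polymerase, was at 73.99, 96.7 and 135 CPM in AY and at 189, 245 and 340 CPM in in vivo young. The groups did not overlap (-1.34 ± 0.15, adjusted p = 2.1e-06, edgeR). Cltc, the clathrin heavy chain, which with TACC3 and chTOG also bridges spindle microtubules, was at 60.3, 81.2 and 108 CPM against 127, 201.8 and 237 CPM, again without overlap (-1.24 ± 0.15, adjusted p = 7.4e-06, edgeR). The third partner of that bridge, Tacc3, was at -0.43 ± 0.13 (adjusted p = 0.0448, edgeR). The other called members were Cep192 (-1.20), which recruits pericentriolar material, the motors Kif4 (-0.75), Kif2a (-0.73) and Kif2c (-0.52), and the spindle pole protein Aspm (-0.33). Tacc3 and these 5 were chosen after their values were seen.

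At the kinetochore, 4 of 33 genes were lower and none higher. The list as a whole did not follow, with a median of 0.06 and 20 positive members. The count was 7 without in vivo young replicate 6, and 2 with libraries of a pattern summed. Cenpf, a large protein of the outer kinetochore, was at 181, 269.1 and 322 CPM in AY and at 573, 709 and 907 CPM in in vivo young, so that the highest AY library lay below the lowest in vivo young library (-1.45 ± 0.13, adjusted p = 2.3e-08, edgeR). Cenpe, the kinetochore motor that carries chromosomes to the spindle equator, was at 264, 283 and 299 CPM against 393, 478 and 531 CPM (-0.73 ± 0.10, adjusted p = 3.8e-05, edgeR). Kntc1 (-2.03 ± 0.32) and the checkpoint kinase Bub1 (-0.67 ± 0.19) were the other members, chosen after their values were seen. Of meiotic cohesin genes 1 of 17 was called, a share below the 7.08% of all genes: Sgo2a (shugoshin 2), which shields centromeric cohesin from separase, was at 74.1, 78.2 and 96.6 CPM against 26.8, 46.6 and 57.6 CPM and rose by 0.87 ± 0.18. Its relative Sgo2b rose by 1.11 ± 0.26, but its counts may include reads of Sgo2a.

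Condensin had 2 of 7 genes lower, none higher and no positive value: Ncapd3 was at -0.91 ± 0.16 and Smc4 at -0.51 ± 0.09, both without overlap between the groups. With libraries of a pattern summed edgeR called no condensin gene. Over all genes 4.91% were lower. Among regulators of chromatin 5 of 31 were lower and none higher (median -0.17). The lower count was 3 without AY replicate 2, and 1 with libraries of a pattern summed. Kmt2c, a histone H3K4 methyltransferase, was at 94.6, 113 and 168 CPM in AY against 183, 228.7 and 259 CPM (-0.89 ± 0.14). Dnmt1, the maintenance DNA methyltransferase, was at 299, 409 and 507 CPM against 541, 689 and 968 CPM (-0.81 ± 0.14). The other called members were Dnmt3a (-0.50), which sets maternal imprints, the H3K36 methyltransferase Setd2 (-0.66) and Uhrf1 (-0.66), the partner of DNMT1. Uhrf1 is counted in the maternal complex list as well. Dnmt3a, Setd2 and Uhrf1 were chosen after their values were seen.

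**Figure D2:**
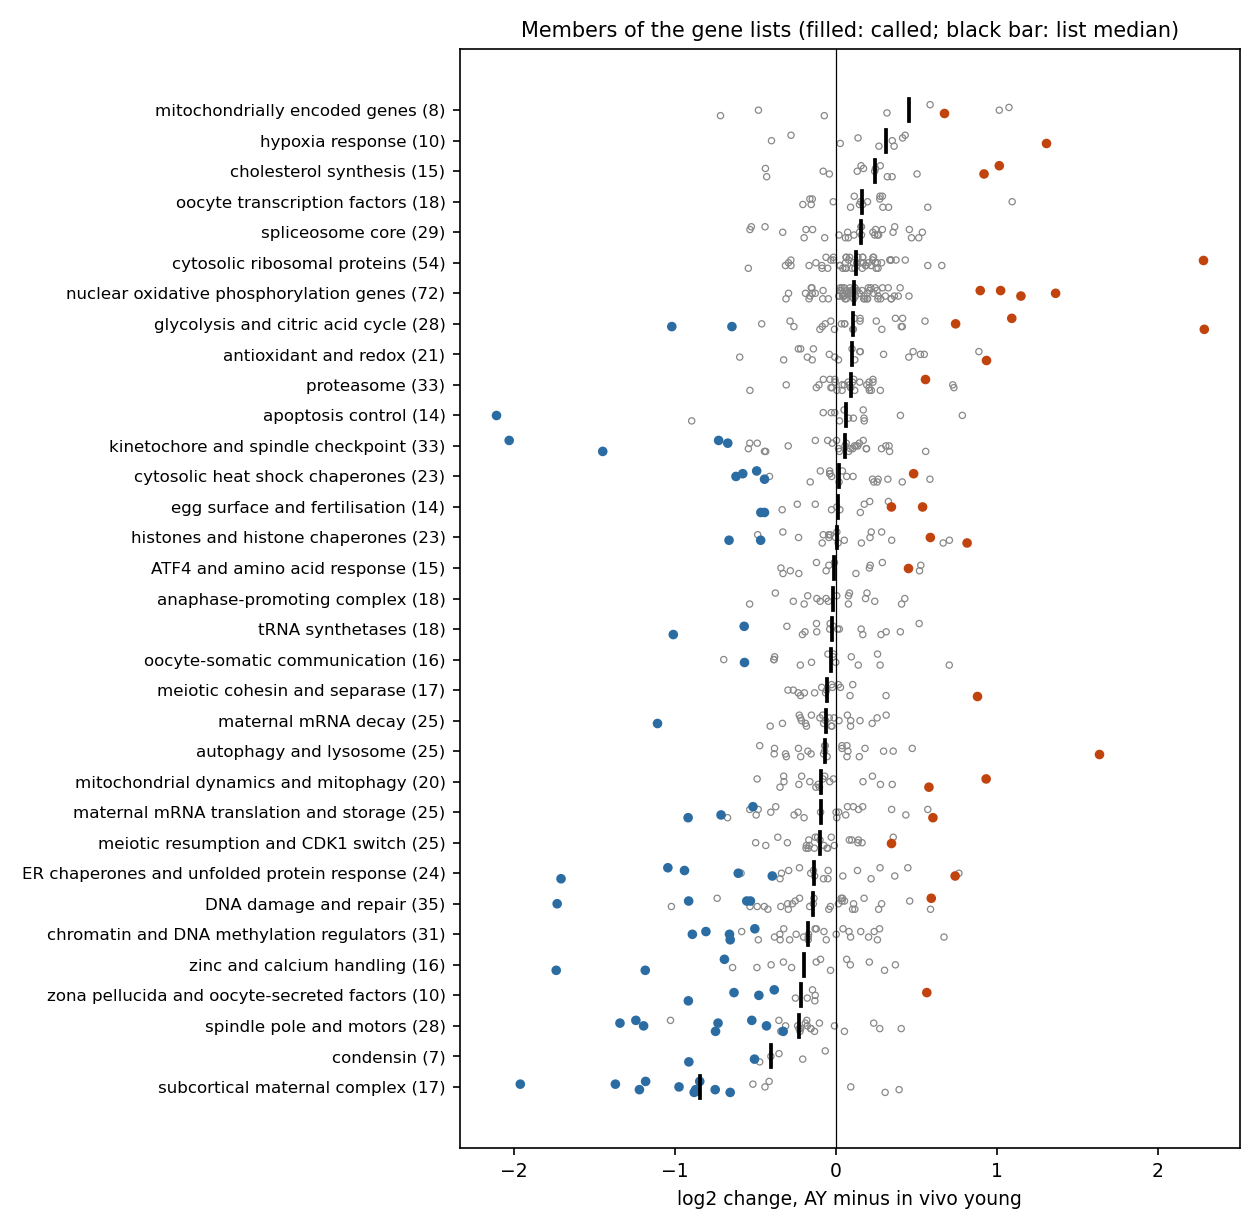
Log2 change of every tested member of the gene lists with at least 7 tested genes, 1 row per list, with the number tested in brackets. Filled points are called genes, open points are not called, and the black bar is the list median. The medians run from -0.85 for the list of the subcortical maternal complex and Nlrp family to 0.45 for the mitochondrially encoded genes.

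Of the DNA repair genes 4 of 35 fell and 1 rose, where 4.91% and 2.17% of all genes did, and with libraries of a pattern summed 1 was called lower and none higher. Brca1, a ubiquitin ligase of homologous recombination, was at 15.9, 30.4 and 34.1 CPM in AY and at 50.9, 94.7 and 132 CPM in in vivo young (-1.73 ± 0.22, adjusted p = 1.4e-05, edgeR), with no overlap. Brca2 was at -0.53 ± 0.12, Rad50 at -0.55 ± 0.12 and the DNA ligase Lig1 at -0.92 ± 0.28. Ung, the uracil glycosylase, was the 1 that rose (0.59 ± 0.14). Brca2 was not called once the trends with transcript length and GC content were removed (-0.25, adjusted p = 0.22, edgeR). Rad50, Lig1 and Ung were chosen after their values were seen.

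Chaperones of the endoplasmic reticulum were lower in 5 of 24 cases and higher in 1, where 4.91% and 2.17% of all genes were. The lower count was 2 without AY replicate 2, 3 or 5 or in vivo young replicate 2, and 3 without AY replicate 6 or in vivo young replicate 1 or 7. The higher call, Sdf2l1, was lost in 7 of 14 such fits: without in vivo young replicate 1 or 3 or any AY replicate but the third. Canx (calnexin) was at 227, 265 and 294 CPM in AY against 337, 412 and 432 CPM (-0.61 ± 0.10), Hsp90b1 at -0.94 ± 0.18, Hspa5 (BiP) at -1.04 ± 0.27, Calr at -0.40 ± 0.12 and the stress kinase Eif2ak3 at -1.71 ± 0.52. Sdf2l1, an endoplasmic reticulum protein that acts with BiP, rose by 0.74 ± 0.22. In the cytosol, 4 of 23 chaperones were lower, namely Hsp90aa1 (-0.58), Hsp90ab1 (-0.49), Tcp1 (-0.62) and Cct2 (-0.44), and Dnajb1, a co-chaperone of HSP70, was higher (0.48), a call lost without AY replicate 2. With libraries of a pattern summed edgeR called none of either chaperone list, with 8 and 7 at an unadjusted p under 0.05. Hspa5, Calr, Eif2ak3, Sdf2l1, Tcp1, Cct2 and Dnajb1 were chosen after their values were seen.

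Genes of energy supply moved in both directions. Ldhb, a subunit of lactate dehydrogenase, was at 4951, 5785 and 8006 CPM in AY and at 8369, 9831 and 11579 CPM in in vivo young, so every AY library lay below (-0.65 ± 0.11, adjusted p = 0.000748, edgeR). AY replicates 1 and 6 were the highest of the AY group, at 7848 and 8006 CPM. Ldha, the other lactate dehydrogenase subunit, was at 5.29, 20.1 and 31.6 CPM in AY and at 0, 2.79 and 26.9 CPM in in vivo young (2.29 ± 0.55, adjusted p = 0.0127, edgeR); in vivo young replicate 5 was the 1 in vivo young library above the lowest AY library. Slc16a1 (MCT1), a carrier of lactate and pyruvate, rose by 1.09 ± 0.28 and Tpi1 by 0.74 ± 0.19, while Ogdh of the citric acid cycle was at -1.02 ± 0.23. In all, 3 of 28 genes of glycolysis and the citric acid cycle rose and 2 fell, where 2.17% and 4.91% of all genes did. With libraries of a pattern summed edgeR called none, with 4 higher and 2 lower at an unadjusted p under 0.05. Slc16a1 and Tpi1 were chosen after their values were seen.

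Of the nuclear genes of oxidative phosphorylation 4 of 72 rose and none fell, and 60 of 72 had a positive value with a median of 0.11. Over all genes 2.17% were higher and 4.91% lower. The higher count was 2 without AY replicate 2 and 7 without in vivo young replicate 6. Uqcrc1, a core subunit of complex III, was at 11.3, 18.8 and 22.1 CPM in AY and at 2.45, 6.26 and 10.9 CPM in in vivo young (1.37 ± 0.34, adjusted p = 0.0136, edgeR). Cyc1 (1.02 ± 0.27) of the same complex and Atp5d (0.90 ± 0.24) and Atp5g3 (1.15 ± 0.31) of the ATP synthase were the others, and the last 2 were chosen after their values were seen. With the trends of length and GC content removed, 2 members were called and the list median was 0.06. Cyc1 was then not called (0.70, adjusted p = 0.137, edgeR), nor was it without AY replicate 2 or with a replicate block. Uqcrc1 and Cyc1 were not called with AY replicates 2 to 5 alone. With the libraries of a pattern summed edgeR called none of the list, with 4 at an unadjusted p under 0.05. Of the mitochondrially encoded genes, mt-Co1 was higher (0.67 ± 0.16), with AY replicate 6 at 622 CPM and the other AY libraries at 293 to 400 CPM. Its call was lost in the fit of all 45 libraries, with AY replicates 2 to 5 alone and with libraries of a pattern summed. The share of counts from mitochondrially encoded genes was 0.242% ± 0.0869 in AY and 0.204% ± 0.0821 in in vivo young (SD, n = 6 and 8, two-sided exact permutation p = 0.412).

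Of the cholesterol genes 2 of 15 rose and none fell, where 2.17% and 4.91% of all genes did. With libraries of a pattern summed edgeR called none of them. Stard4, a carrier of cholesterol between membranes, was at 82.2, 115 and 138 CPM in AY and at 41.6, 54.1 and 91.6 CPM in in vivo young (1.02 ± 0.17, adjusted p = 0.000561, edgeR). In vivo young replicate 8 (91.6 CPM) was the 1 library that reached the AY range. Msmo1, a sterol oxidase of the pathway, rose by 0.92 ± 0.19. Mouse oocytes are known to draw cholesterol from the cumulus cells around them.

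Calcium and zinc genes were lower in 3 of 16 cases and higher in none, where 4.91% and 2.17% of all genes were. With the trends of length and GC content removed 2 were called lower, and with libraries of a pattern summed edgeR called none. Itpr1, the receptor through which sperm trigger calcium release, was at 17.6, 22.8 and 32.2 CPM in AY and at 38.4, 53.7 and 80.4 CPM in in vivo young (-1.19 ± 0.21, adjusted p = 0.000786, edgeR). Stim2, a calcium sensor of the endoplasmic reticulum, was at -0.69 ± 0.14, and the channel Trpm7, chosen after its values were seen, at -1.74 ± 0.49. Of 14 genes of the egg surface and fertilisation 2 were lower and 2 higher, with a median of 0.02. The lower ones were Cd55 (-0.47) and the phospholipase Pla2g4c (-0.44). The higher ones were the homeobox gene Sebox (0.54) and Mos. Mos, the kinase that holds the egg at metaphase II, was also the 1 higher gene of 25 in the list of meiotic resumption. It was higher by 0.35 ± 0.09, with every AY library above every in vivo young library (677 to 889 CPM against 535 to 623 CPM). Mos was not called with the trends of length and GC content removed (0.21, adjusted p = 0.198, edgeR), nor without AY replicate 2 or 3, and Sebox lost its call without in vivo young replicate 1 or 8 or any AY replicate but the fourth. Sebox was chosen with its values known, while Cd55 and Pla2g4c came from the rule for named genes. Kit, the receptor for the ligand that granulosa cells make, was at -0.57 ± 0.15.

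Some lists had no call in edgeR. None of 18 oocyte transcription factors passed (3 had an unadjusted p under 0.05, DESeq2 called none and voom called 2 higher), and none of 18 genes of the anaphase-promoting complex (3 under 0.05, and 1 lower call in each of DESeq2 and voom). None of 29 spliceosome genes passed either (6 under 0.05, and 1 lower call in each of DESeq2 and voom), nor any of 6 immediate early genes (2 under 0.05, none in DESeq2 or voom). Proteasome subunits had 1 higher gene of 33 (Psmd7) and cytosolic ribosomal proteins 1 of 54 (Rpl7a), shares not far from the 2.17% of all genes. Psmd7 was not called without AY replicate 1 or 2. Rpl7a was at 20.4, 26.5 and 37.7 CPM in AY against 1.67, 4.19 and 17.2 CPM (2.28 ± 0.35), but ribosomal protein genes have many processed copies, so this count is uncertain. Histone chaperones split, with Npm1 (0.59) and Daxx (0.82) higher and Nasp (-0.47) and Supt16 (-0.66) lower of 23 genes. With the trends of length and GC content removed, Npm1 was the 1 higher call and none was lower. Daxx was then at 0.65 (adjusted p = 0.0505, edgeR). Of the translation list Eif4enif1 (-0.52), Eif4g3 (-0.71) and Mtor (-0.92) were lower and Patl2 (0.60) higher, out of 25. Patl2 lost its call in 8 of 14 fits with 1 library left out, and without AY replicate 5 neither Nasp nor Supt16 was called. With libraries of a pattern summed edgeR called none of the histone or translation lists, with 4 and 5 at an unadjusted p under 0.05. Nasp, Supt16, Mtor and Patl2 were chosen after their values were seen.

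Outside the lists, Bfsp1, which codes for a filament protein of the lens, was present in every in vivo young library, with at least 21 counts in each, and was at 0 in 5 of the 6 AY libraries. The AY group held 1 count in all, in replicate 1, and the in vivo young group 595. For equal depth the ratio was 327, with an exact 95% interval of 58.6 to 13000. That interval covers counting error only, with each read taken as independent. Bfsp1 was 1 of the 11 genes that are either present or absent in a library. It was absent from other libraries of the series too, 15 of 45 in all. The other genes with the smallest p that fell were Prrc2c (-1.28), Mki67 (-1.24), Myh11 (-1.66), Timd4 (-1.47), Fam107b (-1.07) and Birc6 (-2.12). Mki67 codes for Ki-67, which coats mitotic chromosomes, Timd4 for a phosphatidylserine receptor and Birc6 for a very large ubiquitin ligase that blocks apoptosis. For each of these 6 the groups did not overlap, and since the rule picked them by p in the same libraries this is a description.

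Cst3 (cystatin C), a secreted inhibitor of cysteine proteases, was the higher gene with the smallest p. It was at 128.3, 204 and 251 CPM in AY and at 46.1, 61.8 and 86.9 CPM in in vivo young, without overlap (1.64 ± 0.16, adjusted p = 2.5e-07, edgeR). Cdc34b, a ubiquitin-conjugating enzyme with a near-identical relative in the genome, was at 250, 294 and 618 CPM against 75.4, 96.1 and 124 CPM (1.81 ± 0.18, adjusted p = 4.0e-07, edgeR). Kdelr2, the receptor that returns proteins to the endoplasmic reticulum, rose by 1.03 ± 0.16. Ccne1 (cyclin E1) was at 15.8, 21.4 and 31.6 CPM against 3.35, 6.91 and 11.3 CPM (1.63 ± 0.30, adjusted p = 0.00115, edgeR). Bhlhe40, a transcriptional repressor that hypoxia and many other signals induce, rose by 1.31 ± 0.24. The creatine kinase Ckb (1.02), the Polycomb protein Cbx2 (1.22), Vrtn (1.31) and Fam131a (1.22) rose as well, with some overlap between the groups in each. Ckb was not called with the trends of length and GC content removed (0.72, adjusted p = 0.0654, edgeR), and Vrtn and Fam131a were not called with AY replicates 2 to 5 alone.

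**Figure D3:**
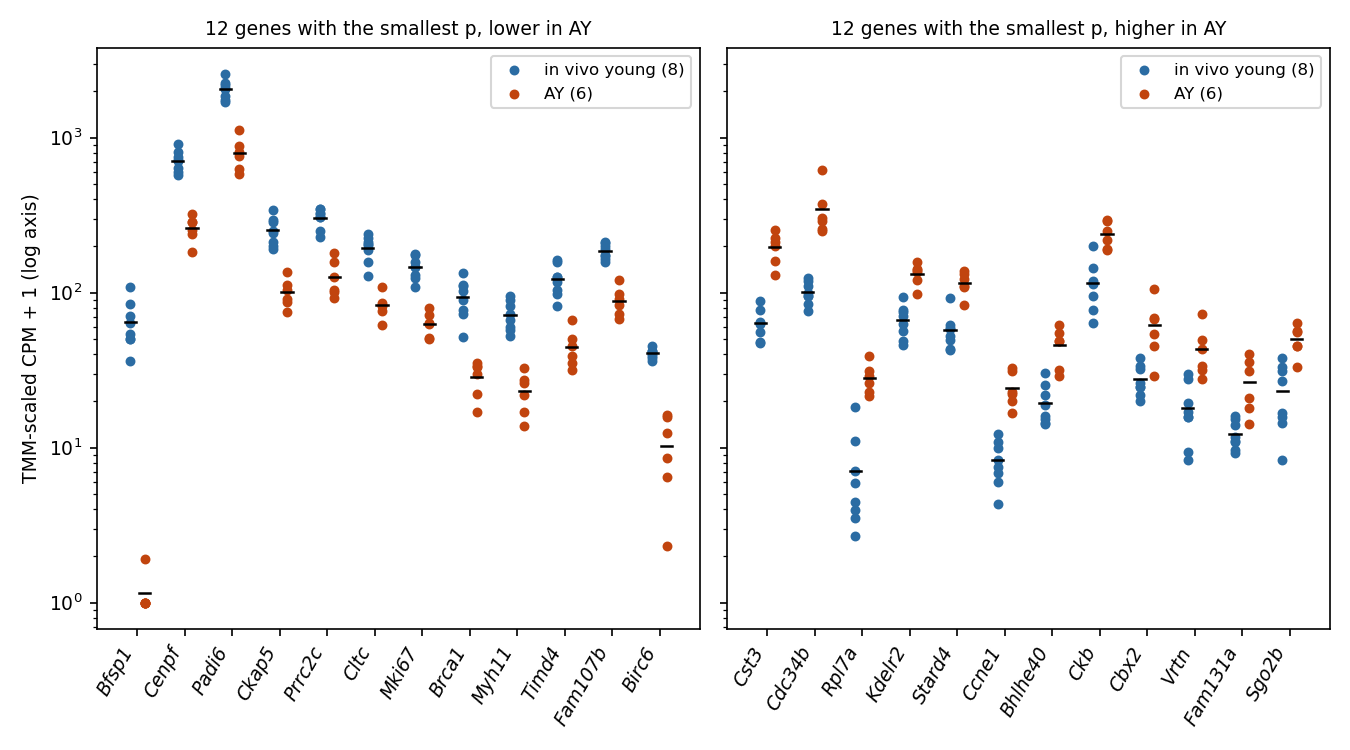
TMM-scaled CPM plus 1 on a log axis in each of the 14 libraries for the 12 lower (left) and 12 higher (right) genes with the smallest p, 1 point per library and a black bar at the mean. The groups are apart in all 12 lower genes, while Stard4, Bhlhe40, Ckb, Cbx2, Vrtn, Fam131a and Sgo2b overlap among the 12 higher ones. The genes were picked by p in these same libraries, so this is a description.

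Slc12a8, a membrane transporter, was at 146 to 237 CPM in AY replicates 2 to 5, and at 8.13 and 14.04 CPM in AY replicates 1 and 6, while the in vivo young libraries were at 13.4 to 26.0 CPM. The change of 2.82 ± 0.63 therefore rests on the 4 libraries of 1 pattern. Nap1l5, an imprinted gene, was at 7.93, 16.8 and 28.0 CPM in AY and at 0, 1.70 and 24.5 CPM in in vivo young (2.52 ± 0.64), with the highest in vivo young value again in replicate 5. Among lower genes, Gabrp (-3.01 ± 0.64), Cldn34d (-2.59 ± 0.66), Slco1a4 (-2.38 ± 0.69) and the pseudogene Nlrp5-ps (-2.41 ± 0.35) had the largest values after Bfsp1. Slco1a4 was at 0 in AY replicates 2 to 5 and at 14.46 and 14.04 CPM in replicates 1 and 6. Slco1a4 kept its call in 12 of 28 alternatives, and Nlrp5-ps may hold reads of Nlrp5. Gabrp was at 8.93 and 1.68 CPM in in vivo young replicates 1 and 2, and at 24.6 to 58.6 CPM in replicates 3 to 8. In AY it was at 0 to 7.54 CPM. Gabrp kept its call in 17 of the 21 alternatives that could fit it, and Cldn34d in 23 of 28.

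Markers of other cells of the follicle were compared to see what else the libraries held. The summed level of 22 granulosa and cumulus markers was 1188 ± 253 CPM in AY (SD, n = 6; 844 to 1411) and 670 ± 172 CPM in in vivo young (SD, n = 8; 439 to 960), with a two-sided exact permutation p of 0.00333 (0.0167 adjusted over 5 marker lists). Most of that sum was Serpine2, a protease inhibitor whose mean was 618 CPM or more in every group of the series. Serpine2 was at 1233 to 1311 CPM in AY replicates 2 to 5, at 612 and 758 CPM in AY replicates 1 and 6, and at 382 to 940 CPM in in vivo young. Without Serpine2 the sum was 127.7 ± 51.0 against 77.1 ± 29.5 CPM (two-sided exact permutation p = 0.0306, n = 6 and 8).

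The granulosa markers differed in level. Amh, Has2, Ptx3, Areg and Slc38a3 had no count in any of the 14 libraries, and Foxl2 had 1 in AY and 0 in in vivo young. Others had counts in both groups. Without TMM scaling, Nr5a2 was at a mean of 32.0 CPM in AY and 38.8 CPM in in vivo young. Cyp19a1 was at 15.8 and 17.3 CPM on the same scale, and Hsd17b1 had 28 and 11 counts and Fshr 23 and 10. Fst had 11 counts in AY and 0 in in vivo young. Of the inhibin and activin subunits, AY held 227 counts of Inha, 51 of Inhba and 30 of Inhbb, and in vivo young held 50, 4 and 2 of a larger total. Inha was at 9.25, 36.2 and 95.8 CPM in AY and at 0, 5.36 and 46.6 CPM in in vivo young, and it was not called in the fit of these 14 libraries (2.696 ± 0.81, adjusted p = 0.068, edgeR). In that fit 1 of 4 markers tested was called higher (Serpine2), and voom called 2. In 1 fit of all 45 libraries, described below, 3 of 5 were called higher in AY than in in vivo young, namely Serpine2, Inha (adjusted p = 0.00566, edgeR) and Inhba (adjusted p = 0.000509, edgeR), with a median of 0.79. AY against YY had 2 higher calls in the same list, Serpine2 and Inha. The highest in vivo young value of Inha, 46.6 CPM, was that of replicate 5, which also held the highest Ldha and Nap1l5 of the in vivo young group. The genes of this paragraph were chosen with their values known. The part of granulosa RNA in the results above was not tested.

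Theca and stroma markers summed to 5.53 and 7.29 CPM, immune markers to 95.1 and 106 CPM and endothelial and blood markers to 64.6 and 68.0 CPM in AY and in vivo young, with adjusted p of 0.688, 0.699 and 0.749 (two-sided exact permutation tests). Most of the immune sum was H2-Aa, at a mean of 80.6 CPM in AY and 83.2 CPM in in vivo young. Most of the endothelial and blood sum was Pecam1, at 47.1 and 52.8 CPM. In all 14 libraries, 7 of 17 theca and stroma, 7 of 16 immune and 8 of 15 endothelial and blood markers were at 0. The oocyte markers, which include Nlrp5, Padi6 and the zona genes, summed to 34100 ± 1651 CPM in AY and 37320 ± 3224 CPM in in vivo young (SD, n = 6 and 8, exact permutation p = 0.0466, or 0.117 adjusted over the 5 lists). Of 18 tested, 6 were called lower and 1 higher, where 4.91% and 2.17% of all genes were. The median log2 change was -0.09, and 8 members had a positive value. With libraries of a pattern summed, 2 were called lower and none higher. H1f8, the most abundant, was at a mean of 10273 CPM in AY and 8572 CPM in in vivo young, without TMM scaling. After thinning to the same total of 418703 counts, 13020 ± 236 genes were detected in AY and 12780 ± 214 in in vivo young (SD, n = 6 and 8, two-sided exact permutation p = 0.0819).

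The lower and higher genes differed in the length and base composition of their transcripts. Lower genes had a median transcript length of 4432.5 bases and a median GC content of 45.4%, and higher genes 2432 bases and 52.7%, beside 3101 bases and 48% over all genes tested. In the 1611 longest genes 10.1% were lower and 0.683% higher, and in the 1611 shortest 2.61% were lower and 2.73% higher. Cenpf, Birc6, Kmt2c and Prrc2c are among the long transcripts. In the 1611 genes of highest GC content 4.9% were higher and 1.61% lower, and in the 1611 of lowest 1.06% were higher and 6.83% lower.

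A slope with length and with GC content was computed for each library from its log2 level against the mean of the 14. Per doubling of length the slope was -0.041 ± 0.026 in AY and 0.031 ± 0.043 in in vivo young (SD, n = 6 and 8, two-sided exact permutation p = 0.00466), and in vivo young replicate 6 had a slope of -0.047, within the AY range. Per 10 points of GC content it was 0.098 ± 0.064 in AY and -0.073 ± 0.062 in in vivo young (p = 0.000666, same exact permutation test), and all 6 AY slopes lay above all 8 in vivo young slopes. Sequencing libraries of single cells can differ in length and GC content for technical reasons, and whether that holds here was not tested. With each library's trends removed, 436 genes were called, 150 higher and 286 lower, of which 364 were among the 571. Padi6 (-1.48), Cenpf (-1.15), Ckap5 (-1.15), Birc6 (-1.75) and Cst3 (1.44) kept their calls, and 60 of the 70 named genes did.

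**Figure D4:**
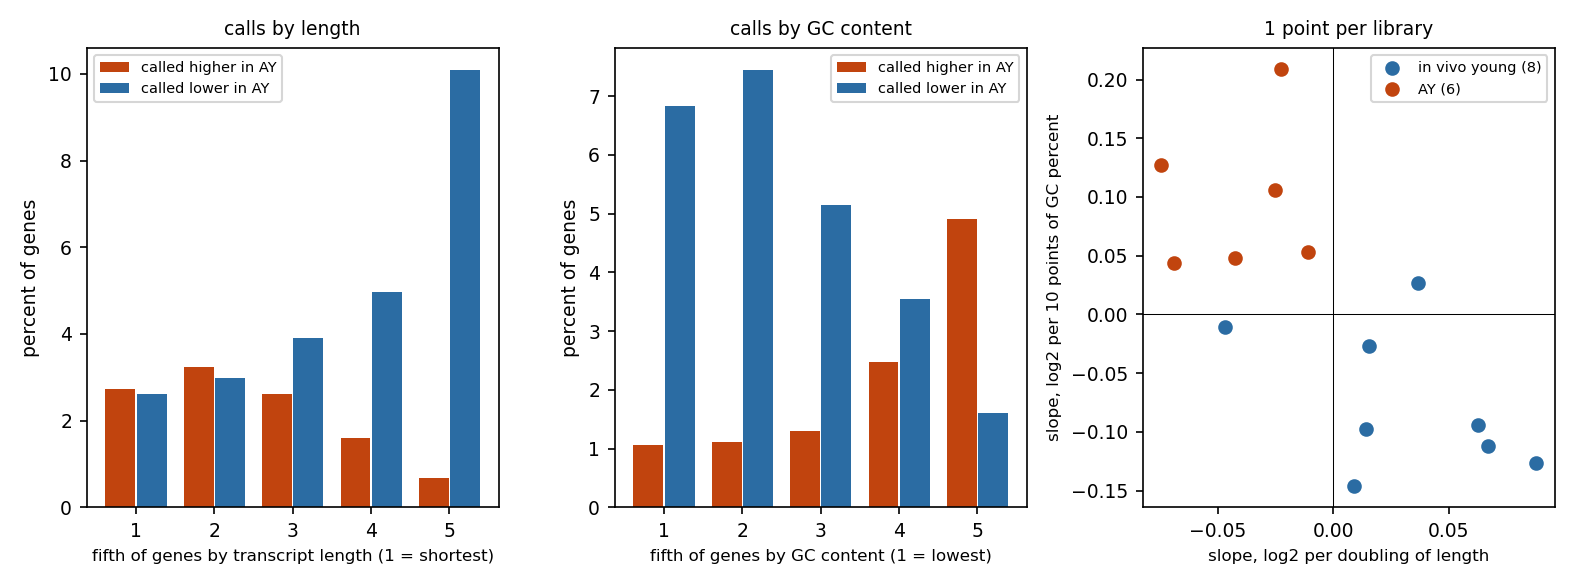
Left and middle, percent of genes called higher (orange) or lower (blue) in AY in 5 equal bins of transcript length and of GC content. Right, the slopes of each library with length and with GC content, 1 point per library, where the 6 AY libraries all lie above the 8 in vivo young libraries on the GC axis.

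The groups between in vivo young and AY were used to place the change. In 1 fit of all 45 libraries (9162 genes), in vitro young against in vivo young gave 29 calls (0.317%), YY against in vitro young 378 (4.13%) and AY against YY 120 (1.31%). AY against in vivo young gave 662 (7.23%) in that fit. These steps add up for each gene and neighbouring steps share libraries, so they are given side by side. The groups of each step also differ in their range of library numbers, which cannot be told apart from the labelled difference. The middle step, YY against in vitro young, uses young oocytes alone and holds no AY or in vivo young library. In it, 105 of the 396 genes lower in AY were called lower and none higher, where 2.6% of all genes were called lower. Those 105 were 105 of the 238 genes lower in that step. Of the 175 genes higher in AY, 16 were called higher and 1 lower, where 1.53% of all genes were called higher.

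For the list of the maternal complex and the Nlrp family, the called members were at that middle step. Its median was -0.41 for in vitro against in vivo young with no member called in edgeR and 6 lower at an unadjusted p under 0.05, -0.59 for YY against in vitro young with 9 of 17 called lower, and 0.22 for AY against YY with none called and none under an unadjusted p of 0.05. Nlrp5 had means of 2776 CPM in in vivo young, 1660 in in vitro young, 543 in YY, 711 in AY and 1411 in AA (scaled over 45 libraries). Its steps were -0.74 ± 0.32, -1.61 ± 0.30 (adjusted p = 0.00103, edgeR) and 0.38 ± 0.33. Padi6 had steps of -0.57 ± 0.18, -0.83 ± 0.17 (adjusted p = 0.00256, edgeR) and 0.03 ± 0.19. Cenpf likewise had its called step between in vitro young and YY (-0.96 ± 0.14), as did Cltc (-1.02 ± 0.15) and Zp2 (-0.88 ± 0.11). Zp2 was higher in AY than in YY (0.53 ± 0.12, adjusted p = 0.0141, edgeR).

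Other genes had their called step between YY and AY. These groups differ in the labelled age of the oocyte and in their range of library numbers, and these cannot be told apart. Timd4 was at 121 CPM in in vivo young, 107 in in vitro young, 120 in YY and 43.4 in AY, and its last step was -1.45 ± 0.22 (adjusted p = 7.4e-05, edgeR). Myh11 had a last step of -1.14 ± 0.22 (adjusted p = 0.00177, edgeR), with 32.8 CPM in AA. Cdc34b rose by 1.24 ± 0.17 at that step and stood at 347 CPM in AY, 344 CPM in AA and 146 CPM in YY. Cst3 rose by 0.92 ± 0.16 from YY to AY (adjusted p = 0.000771, edgeR), to 195 CPM, and was at 76.8 CPM in AA. Serpine2 rose by 0.77 ± 0.17 at the same step. Stard4 and Msmo1 had their largest step, not called, between in vivo young and in vitro young (0.65 ± 0.19 and 0.70 ± 0.19, adjusted p = 0.126 and 0.0819, edgeR). Bhlhe40 was called at that step (0.92 ± 0.21, adjusted p = 0.0253, edgeR).

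**Figure D5:**
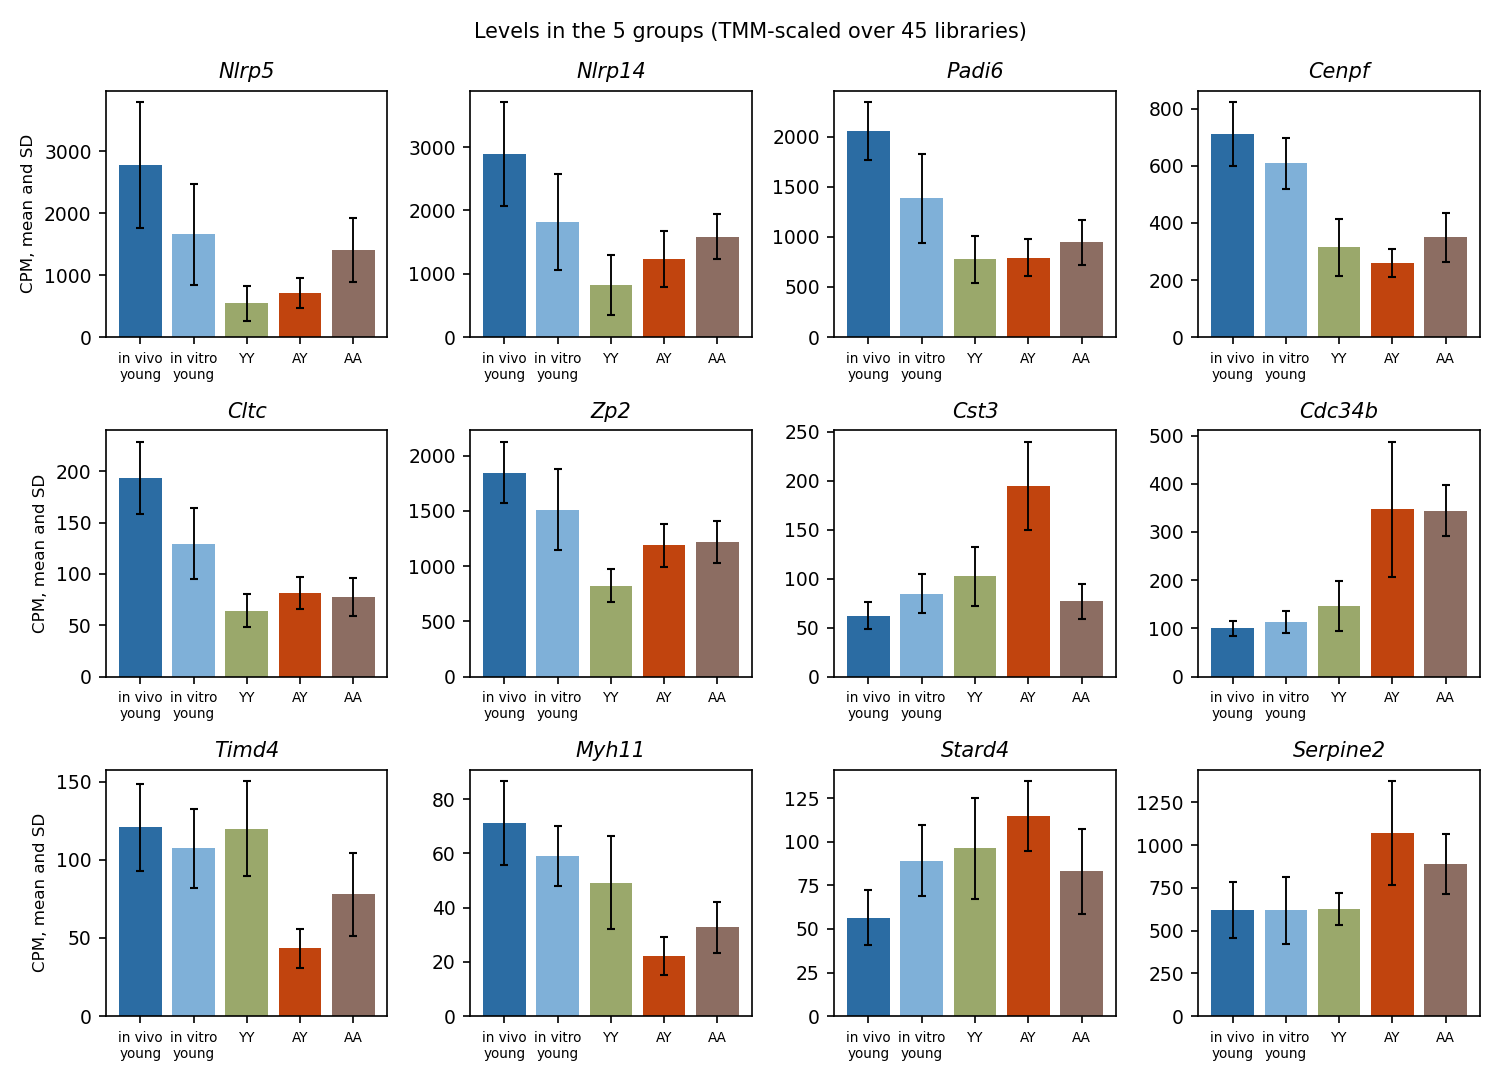
Mean and SD of TMM-scaled CPM over the libraries of each of the 5 groups (8 in vivo young, 8 in vitro young, 11 YY, 6 AY, 12 AA) for 12 genes, on linear axes from 0. The means of Nlrp5, Nlrp14, Padi6, Cenpf, Cltc and Zp2 are lower in YY and in AY than in in vivo young (Zp2 is higher in AY than in YY), while Timd4 and Myh11 are lowest in AY and Cdc34b is high in AY and AA.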

How the data were processed

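RNA of single mouse oocytes was sequenced, 1 library per oocyte, and 14 libraries were compared (6 AY, 8 in vivo young). The authors deposited whole-number read counts per gene, not normalized, for 55357 gene identifiers. STAR 2.7.8a, HTSeq 0.11.0 and the build mm39 were used, per the submitters' processing notes; the sources used here do not say whether strand was used in counting, nor how reads shared by similar genes were handled. Columns were matched to samples by library number. The reads carry no molecular identifiers, so the interval for Bfsp1 takes each read as an independent count. It leaves out the spread between libraries, which the standard errors of edgeR include.

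From the counts, edgeR 4.0.16 in R 4.3.3 was run on the 14 libraries with TMM scaling, filterByExpr (counts of at least 10, totals of at least 15) and the robust quasi-likelihood test, adjusted by Benjamini-Hochberg over 8060 genes. The threshold for a call was an adjusted p of 0.05, and standard errors were derived from the F statistic. CPM are TMM-scaled. A fit of all 45 libraries gave the steps between groups. Single values per library were compared with two-sided exact permutation tests (scipy 1.17.1). Transcript length and GC content came from GENCODE M21 transcripts, matched by gene identifier for 8053 genes.

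The members and lists (39 lists, 1167 entries, of which 1120 matched) were chosen with earlier results of these data known, and no set test was run. The naming rule took the 12 called genes of smallest p per direction, given a log2 change of 1 or more, 10 CPM or more on average in the higher group, and 5 counts or more in a share of 0.75 of that group's libraries, without predicted gene models. It added up to 2 called members of each list and the 5 largest changes in each direction, 70 genes in all.

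The fit was tested on simulated counts of the 8060 genes: 25.4% of the 1.5-fold, 71.6% of the 2-fold and 100% of the 4-fold changes were recovered, with 3 false calls. Counts of every pair of libraries in a group differed by more than counting noise (the lowest ratio of chi-square to its degrees of freedom was 2.21). Alternatives were RLE size factors, DESeq2 1.42.0, voom of limma 3.58.1, other filters, other sets of libraries, a replicate block, the number of detected genes as a covariate, removal of mitochondrially encoded genes, the pattern of all-or-nothing genes as a block or summed, and each library left out in turn. Removal of length and GC trends, and AY replicates 2 to 5 alone, were added after seeing the data.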

Additional observations from a re-analysis of the deposited data

Results flagged for a closer look

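In 8 of 154 groups of libraries examined, 1 library stood far from the rest of its group by Dixon's test, and chance gives about 1 in 20, or 7.7. For Cdc34b, AY replicate 6 was at 617.7 CPM and the other AY libraries at 249.7 to 369.5 CPM. The same library was at 621.6 CPM for mt-Co1, with the others at 293.3 to 400.2 CPM. For Bfsp1, AY replicate 1 was at 0.9035 CPM, which is 1 count, and the other 5 AY libraries were at 0.

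In vivo young replicate 5 stood apart for Ldha, at 26.95 CPM with the others at 0 to 5.2 CPM, and for Nap1l5, at 24.5 CPM with the others at 0 to 4.466 CPM. In vivo young replicate 8 was at 91.55 CPM for Stard4, with the others at 41.65 to 60.53 CPM. In vivo young replicate 6 was low for Eif4enif1, at 296.4 CPM with the others at 369.1 to 429 CPM, and for the summed endothelial and blood markers, at 24.52 CPM with the others at 57.06 to 86.33 CPM.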

How the results depend on the processing

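Over the alternatives that kept single libraries as samples, the count of called genes ran from 393 to 810 with 1 library left out (without AY replicate 3 and without in vivo young replicate 6), was 416 with AY replicates 2 to 5 alone and 809 with voom, and was 340 at 2-fold or more with no filter on low counts (138 to 194 with 1 library left out). With libraries of a pattern summed it was 35, and 27 at 2-fold or more, with 5 samples in place of 14, and 17 of the 70 named genes kept a call. A random block for the pattern gave 497 (correlation 0.097). All named genes kept their direction wherever they could be fitted. The replicate numbers do not pair the samples: deviations of same-numbered libraries correlated at -0.059 to 0.331, and replicates 2, 3 and 6 alone correlated best with their own number. With a replicate block 506 genes were called, 415 of them among the 571. The difference in mitochondrial share was -0.008698 percentage points with AY replicates 2 to 5 alone, and 0.005903 to 0.05644 with 1 library left out. The difference in genes detected was 186.8 when at least 5 counts were asked, which passed, and 161.9 to 285.6 with 1 library left out, where it passed without in vivo young replicate 6. The difference in summed oocyte markers was -2312 CPM with in vivo young replicates 3 to 8 alone and -3641 CPM with AY replicates 2 to 5 alone, neither passing, and -3726 to -2636 CPM with 1 library left out, where it missed the threshold in 8 of 14 cases. The difference in endothelial and blood markers was 1.084 and 3.385 CPM in those same subsets, 2.316 CPM without AY replicate 1, and -9.648 to 2.316 CPM over all libraries left out. The cause of these changes was not tested. Summed by pattern, edgeR called no condensin, cholesterol or calcium and zinc gene, with 3, 3 and 6 at an unadjusted p under 0.05. Among single named genes, 157 values lost their call and 1789 did not change side. At this depth 25.4% of simulated 1.5-fold changes were found, so changes of that size are often missed.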

Other observations

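Calls were spread unevenly over levels and kinds of transcript. In the fifth of genes with the highest mean level (133.33 CPM and above), 136 of 1612 genes were lower in AY and 36 higher, and in the fifth with the lowest level (up to 18.42 CPM) 31 were lower and 24 higher. Of 286 long non-coding RNAs 23 (8.04%) were lower and 3 (1.05%) higher, of 7145 protein-coding genes 355 (4.97%) were lower and 166 (2.32%) higher, and of 600 pseudogenes 17 (2.83%) were lower and 6 (1%) higher. The counting may not separate pseudogenes from their parent genes.

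Some of the other all-or-nothing genes differed in how many libraries of each group held them, and some did not. Oog3, an oocyte gene of the PRAME family, was present in 2 of 6 AY and 8 of 8 in vivo young libraries, and Mtfr2, a regulator of mitochondrial fission, likewise in 2 and 8. Rhbdf1 and Gm17830 were present in all 14, and Pramel48 in 4 AY and 2 in vivo young libraries. Tmem14c, a mitochondrial transporter of heme synthesis, was present in 2 AY and 4 in vivo young libraries. These genes were chosen after their values were seen.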
